A study of Mus musculus with 30 samples.

Results

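The imprinted growth control genes examined here were H19, Meg3, Rian, Mirg, Dlk1, Peg3, Mest, Plagl1, Grb10 and Ndn. They were chosen by name as the rows of the raw count table for these symbols, so that 10 of 55487 genes were followed, and all 10 had a row. Earlier results of these data were known when they were chosen, so medians over them are a description only. RNA sequencing was performed on C2C12 myotubes, which form by fusion of a wild-type immortalized mouse myoblast line, in 5 groups of 6 libraries. All groups shared 4 days of differentiation in low glucose DMEM with 2% horse serum, followed by 4 days of treatment. In the 2% HS group the horse serum was kept. It was withdrawn in the serum-deprived group (SD), and in the MET, LEU and MET+LEU groups, which received 100 nM metformin, 500 nM leucine or both without serum. The labels number the libraries of a group but do not say that they came from separate cultures, so the p-values measure the spread between these libraries, which may be technical.

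Libraries held 12784960 to 19604103 counts. The 12 myotube markers were all abundant enough for the test, with summed levels of 10600 to 12908 CPM (counts scaled to library size) over the 30 libraries. Adipocyte and leukocyte markers summed to at most 0.229 and 0.845 CPM, with Lep and Adgre1 at 0 in every library. Endothelial markers summed to at most 4.11 CPM, and 1 of 5, Vwf, was abundant enough for the test and was lower in SD than in 2% HS. One library stood apart, since MET+LEU replicate 6 gave 5.85% of its reads to nuclear and 7.64% to mitochondrial rRNA, against at most 1.96% and 0.760% in the other 29. The values of the MET+LEU group are therefore also given without it. The other 5 MET+LEU libraries had 0.649 to 0.760% mitochondrial rRNA, against 0.219 to 0.306% in 2% HS, 0.281 to 0.367% in SD, 0.244 to 0.705% in MET and 0.501 to 0.710% in LEU.

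Imprinted genes are transcribed from only one parental copy, because DNA methylation set in the egg or sperm marks a control region that silences or activates the genes around it. Many of them act on fetal growth, and paternally expressed genes of this kind often promote growth while maternally expressed ones often restrain it. H19 and Igf2 lie next to each other on chromosome 7 and share enhancers, some of which are used in muscle as myoblasts differentiate. The Dlk1-Dio3 cluster on chromosome 12 carries the protein gene Dlk1 on the paternal copy and the long noncoding RNAs Meg3, Rian and Mirg, with many small RNAs inside or between them, on the maternal copy. Standard RNA sequencing without parental variants, as here, measures the sum over both copies and not the imprint itself.

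H19 is both a long noncoding RNA and the precursor of miR-675, and an intron of Mest holds miR-335. Their mature sequences, from RefSeq on GRCm38.p6, are shown with the seed (bases 2 to 8, which pair with target RNAs) in capitals, because of the microRNA hosts among the 10 genes these were abundant enough for the test.
miR-675-5p: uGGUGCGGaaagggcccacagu
miR-675-3p: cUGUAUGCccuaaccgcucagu
miR-335-5p: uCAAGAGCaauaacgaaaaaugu
miR-335-3p: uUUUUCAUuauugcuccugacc
RefSeq listed 112 mature microRNAs with 102 distinct seeds between the start of Dlk1 and the end of Mirg, of which 26 were within Mirg. No seed was shared by 3 or more of them. The following pairs are shown because each shares a seed although its members come from different hairpins, with both members of the first pair within Mirg, and because the lncRNA rows that cover or flank them were at or near 0.
miR-453: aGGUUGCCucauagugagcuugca
miR-496a-5p: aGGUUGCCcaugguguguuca
miR-410-5p: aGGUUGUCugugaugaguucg
miR-494-5p: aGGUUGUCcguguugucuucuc
miR-379-3p: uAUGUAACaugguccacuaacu
miR-411-3p: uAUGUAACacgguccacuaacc
The libraries were made from total RNA to read long RNAs, and mature microRNAs were not measured.

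Promoter windows in RefSeq (250 bases before to 50 bases after a start, GRCm38.p6) matched 9 of the 10 genes with 13 windows. H19 had no window. The palindrome TGACGTCA, known as the full cyclic AMP response element, was searched on both strands and stood in 1.79% of 32851 windows of all genes, while TATAAA, the core of the TATA box, stood in 13.6%. Among the 13 windows, 2 held TGACGTCA, in Peg3 and in Meg3, and the same Meg3 window held TATAAA on both strands in overlapping copies. These windows are printed with the motifs in capitals, since the same letters stood before one of the more abundant genes and before one with no reads.
Peg3, chr7:6730370-6730669, minus strand: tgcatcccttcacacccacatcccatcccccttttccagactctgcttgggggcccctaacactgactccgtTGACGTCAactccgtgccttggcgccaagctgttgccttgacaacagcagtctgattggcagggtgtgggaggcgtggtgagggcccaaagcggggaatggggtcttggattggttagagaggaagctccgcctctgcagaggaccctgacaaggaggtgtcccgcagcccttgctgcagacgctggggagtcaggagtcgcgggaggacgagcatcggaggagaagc
Meg3, chr12:109540746-109541045, plus strand: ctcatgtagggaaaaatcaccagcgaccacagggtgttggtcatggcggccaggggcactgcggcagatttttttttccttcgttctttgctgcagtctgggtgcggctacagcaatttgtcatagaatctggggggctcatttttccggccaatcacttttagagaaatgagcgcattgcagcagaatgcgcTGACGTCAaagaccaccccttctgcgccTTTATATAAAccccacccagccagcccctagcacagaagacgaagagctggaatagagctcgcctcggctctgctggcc
The 2 printed windows each held 13 CG dinucleotides, against a median of 7 over all windows. The other Meg3 window held 1, and the windows of the other genes ranged from 0 (Rian) to 45 (Grb10).

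No read was assigned to Meg3, Mirg or Dlk1 in any of the 30 libraries. Meg3 (ENSMUSG00000021268, chr12:109541001-109571726 on GRCm38, plus strand, 18089 bp of exon) is a lncRNA, Mirg (ENSMUSG00000097391, chr12:109729764-109749460, 7292 bp) hosts microRNAs, and Dlk1 (ENSMUSG00000040856, chr12:109452823-109463336, 5657 bp) encodes a transmembrane protein with EGF repeats. A count of 0 in a single library allows up to 3 counts, which was 0.153 to 0.235 CPM over the libraries, and 3 counts over all libraries together correspond to 0.00646 CPM, for counting error only. Rian (ENSMUSG00000097451, chr12:109603940-109661716, 18234 bp of exon), the host of C/D box small nucleolar RNAs, had 7 reads in all. SD replicate 4 held 4 of them, and 2% HS replicate 1, LEU replicate 2 and LEU replicate 5 held 1 each. The MET and MET+LEU libraries had none. These 4 genes were not tested, and no difference between conditions could be seen at this depth.

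The near absence of reads covered the whole interval. From the start of Dlk1 to the end of Mirg, 296.6 kb, the table had 102 annotated genes, and 99 of them were at 0 in every library. They included all 66 microRNA genes and all 23 small nucleolar RNA genes in the interval. The other 3 were Rian, the retrotransposon-derived gene Rtl1 with 8 reads in 5 libraries and the lncRNA Gm34081 with 3 reads, so that the interval collected 18 reads of 464443807. Genes upstream of the interval and beyond Dio3 were transcribed. Upstream, Begain had 400 reads, Wdr25 3954 and the tryptophanyl-tRNA synthetase gene Wars 26314 over the 30 libraries. Beyond Dio3 the phosphatase subunit gene Ppp2r5c had 46126 and the dynein heavy chain gene Dync1h1 363133. Reads stayed few in the 454 kb after Mirg that run to Dio3, where 8 of 14 genes were at 0 and all 14 collected 193 reads. Dio3, the deiodinase gene at the far end of the cluster, had 23 reads and its antisense neighbour Dio3os 28. MicroRNA and small nucleolar RNA rows are hardly measured by libraries of this kind, and of all 3714 such rows 66.8% were at 0 in every library. Of the 13 other rows in the interval 10 were at 0, against 38.8% of all 51513 other annotated rows. How featureCounts was set for reads that overlap more than 1 gene is not given in the sources used here. Of the 18089 bp of Meg3 exon, 174 bp are shared with microRNA genes and 97 bp with another small RNA gene, all on the same strand and at 0. A further 1228 bp are shared with a gene on the opposite strand, which had no row in the count table.

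**Figure D1:**
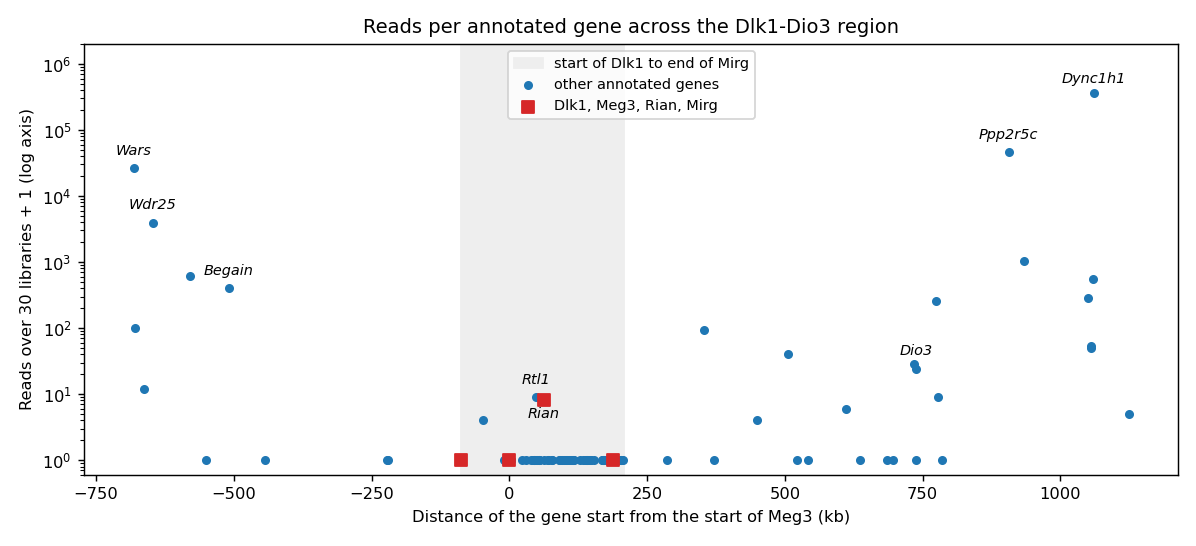
Reads per annotated gene summed over the 30 libraries (plus 1, log axis) against the distance of the gene start from the start of Meg3 (kb); squares are Dlk1, Meg3, Rian and Mirg, circles other genes, and the shaded band runs from the start of Dlk1 to the end of Mirg. Inside the band 99 of 102 genes sit at 0 reads, while Wars, Ppp2r5c and Dync1h1 outside it have 26314 to 363133.

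H19 (ENSMUSG00000000031, chr7:142575529-142578143, minus strand) was at the other extreme. It took 0.515% of all counts and ranked 8th of 55487 genes in mean level (5172 CPM) and 10th of 48405 genes with at least 200 bp of exon in level per kb of exon. In 2% HS its level ran from 5066 to 5518 CPM with a median of 5268. SD libraries ranged from 4662 to 5596 (median 4867), MET libraries from 4486 to 4978 (median 4725) and LEU libraries from 4758 to 5434 (median 4909). MET+LEU libraries ranged from 5329 to 7197 (median 5604), the highest being replicate 6. The scaling of that library raised its CPM, with a TMM scaling factor of 0.803 against 0.968 to 0.985 in MET+LEU replicates 1 to 5. The MET+LEU libraries all lay above every MET library, and overlapped with those of the other groups. Mir675 (84 bp, inside an exon of H19) had 0 counts in its own row, and reads from that stretch cannot be told apart from those of H19.

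Per kb of exon, the level of H19 (2102 CPM per kb) was followed by Peg3 (30.7), Mest (10.8), Plagl1 (0.406), Ndn (0.387) and Grb10 (0.0539), averaged over the 30 libraries. These 6 genes passed the filter on low counts, 6 of the 10 members. Igf2, the growth factor gene beside H19 and read from the other parental copy, was at 4.36 CPM per kb in 2% HS, against 2144 for H19 in the same libraries.

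Peg3 (ENSMUSG00000002265, chr7:6703892-6730431, minus strand), a paternally expressed zinc finger gene known to mark muscle progenitors, ranked 289th. Its level was 493 to 558 CPM in 2% HS (median 542), 354 to 372 in SD (median 367), 342 to 362 in MET (median 352), 365 to 412 in LEU (median 383) and 377 to 444 in MET+LEU (median 405). No serum-deprived library of any treatment reached the lowest 2% HS library. Mest (ENSMUSG00000051855, chr6:30723547-30748465, plus strand) encodes a paternally expressed protein with an alpha/beta hydrolase fold. Its level was 67.4 to 82.1 CPM in 2% HS (median 69.8), 34.0 to 38.5 in SD (median 36.3), 34.2 to 46.0 in MET (median 36.7), 32.6 to 38.6 in LEU (median 34.7) and 25.9 to 37.0 in MET+LEU (median 32.1). For Mest too the 2% HS libraries stood above all others. The 4 serum-deprived groups overlapped with each other for Mest, while for Peg3 every MET+LEU library lay above the SD and MET libraries and every LEU library above the MET libraries.

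The other 3 detected genes were low. Plagl1 (ENSMUSG00000019817, chr10:13060504-13131694, plus strand), a zinc finger transcription factor gene, had 3.77 to 5.80 CPM in 2% HS (median 4.94), 2.26 to 4.23 in SD (median 2.62), 2.40 to 3.39 in MET (median 2.75), 1.80 to 3.24 in LEU (median 2.69) and 2.09 to 3.20 in MET+LEU (median 2.88). The SD group overlapped with 2% HS through its replicate 5, and the MET, LEU and MET+LEU groups did not. Ndn (ENSMUSG00000033585, chr7:62346569-62350262, plus strand), a MAGE family gene of the Prader-Willi region, had 9 to 39 counts per library, with medians between 1.18 CPM in 2% HS and 1.65 CPM in SD. Grb10 (ENSMUSG00000020176, chr11:11930508-12038683, minus strand) encodes an adaptor that inhibits insulin and IGF1 receptor signalling. It had only 2 to 18 counts per library, with medians between 0.343 CPM in MET and 0.826 CPM in 2% HS. For Ndn and Grb10 all groups overlapped.

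**Figure D2:**
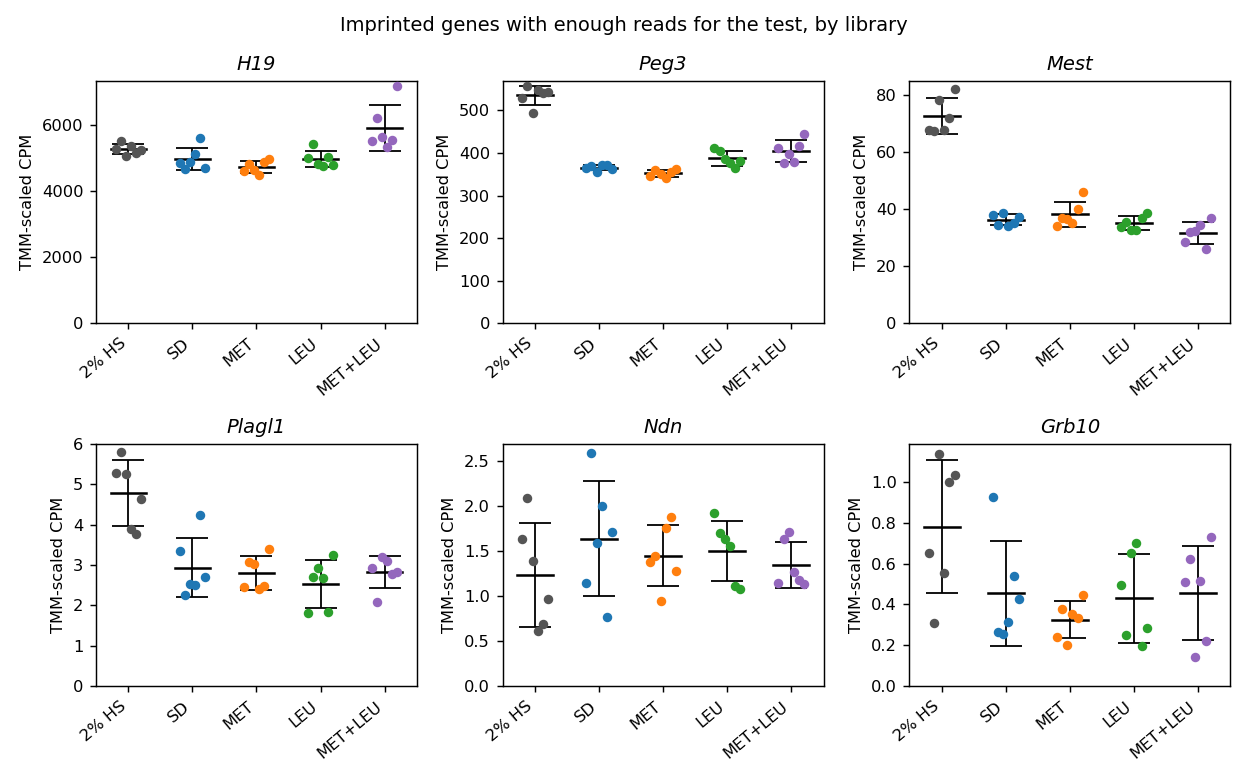
TMM-scaled CPM of the 6 detected imprinted genes in each library by group; points are libraries, horizontal lines group means and bars ± 1 standard deviation (n = 6). Peg3 and Mest in 2% HS lie above all 24 serum-deprived libraries, and the highest H19 value, 7197 CPM, is MET+LEU replicate 6.

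Serum deprivation lowered 3 of the 6 tested genes and raised none. Peg3 fell by 0.55 on the log2 scale (SE 0.04, adjusted p = 2.3e-17 in edgeR's quasi-likelihood test), from 536 ± 22.6 to 366 ± 6.66 CPM (mean ± standard deviation, n = 6 each, as for the other values after ±). Mest fell by 1.00 (SE 0.07, adjusted p = 2.2e-15), from 72.5 ± 6.33 to 36.3 ± 1.91 CPM, which was the largest fold change of the 3. Plagl1 fell by 0.71 (SE 0.16, adjusted p = 3.7e-04), from 4.77 ± 0.818 to 2.93 ± 0.735 CPM. Of all 15907 genes tested, 27.8% were called in this comparison and 13.9% were called lower. The libraries of Peg3 and Mest did not overlap between SD and 2% HS, which was so for 13.6% of all genes.

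H19 did not pass the test between SD and 2% HS, at -0.09 on the log2 scale (95% interval -0.19 to 0.01, adjusted p = 0.22). Without SD replicate 5, the highest SD library, the fold change was -0.12 and the adjusted p = 0.0488. Ndn had a log2 fold change of 0.44 (SE 0.26, adjusted p = 0.21). Grb10 had one of -0.74 (SE 0.36, adjusted p = 0.12), and without SD replicate 1, at 0.929 CPM, it was -1.13 with an adjusted p = 0.0254. The median over the 6 genes was -0.63, against 0.00 over all genes tested.

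Cell markers of several kinds moved with this comparison. Of 12 myotube markers, Ckm (-0.98), Mymx (-0.39) and Actn2 (-0.34) were lower and Des (0.13) higher, while their sums overlapped. Of 10 proliferation markers, Mcm5 (0.44), Aurkb (0.39) and Pcna (0.19) were higher. For the 8 markers of undifferentiated myoblasts the groups stood apart. Their sum was 785 to 857 CPM in 2% HS and 585 to 639 CPM in SD, with 4 of the 8 lower (Pax7, Vcam1, Notch3 and Hes1) and 1 higher (Cd34). The summed levels of the genes listed as fibroblast markers rose from 2881 to 3098 CPM in 2% HS to 4749 to 5106 CPM in SD. Of the 5 tested, Pdgfra, Dpt, Lum and Col3a1 were higher. Tcf4 was lower, but this gene does not encode the fibroblast marker protein called TCF4, and its counts are in the sum. Thy1 was too low to test and Tcf21 was at 0 in every library. The part of all these markers in the falls of Peg3, Mest and Plagl1 was not tested. In bulk RNA, fewer cells of a type and less RNA per cell cannot be told apart.

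With metformin or leucine alone, none of the 6 genes passed the test against SD in edgeR, in DESeq2 or in limma-voom. At an unadjusted p under 0.05 there were 0 genes for metformin and 1 for leucine, Peg3 with a log2 fold change of 0.08 (SE 0.04, adjusted p = 0.39). Of all genes, 0.157% were called for metformin (MET vs. SD) and 0.553% for leucine (LEU vs. SD). For the abundant genes the intervals were narrow, at -0.17 to 0.03 for H19, -0.12 to 0.02 for Peg3 and -0.07 to 0.21 for Mest with metformin. With leucine they were -0.10 to 0.10 for H19, 0.01 to 0.15 for Peg3 and -0.19 to 0.09 for Mest. For Plagl1 the log2 fold changes were -0.06 (SE 0.16) with metformin and -0.20 (SE 0.17) with leucine. Ndn had -0.18 and -0.13 (SE 0.25 for both), and Grb10 had -0.50 (SE 0.41) and -0.12 (SE 0.39). Both comparisons and that of MET+LEU share the SD libraries.

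The combination of metformin and leucine raised H19 and Peg3 and lowered Mest against SD. H19 rose by 0.25 on the log2 scale (SE 0.05, adjusted p = 5.4e-04), from 4971 ± 346 to 5910 ± 696 CPM (n = 6 each), a fold of 1.19. Without MET+LEU replicate 6 it rose by 0.18 (adjusted p = 7.2e-04). Peg3 rose by 0.15 (SE 0.04, adjusted p = 0.0030), from 366 ± 6.66 to 405 ± 25.4 CPM, and by 0.11 (adjusted p = 0.0183) without that library. Each MET+LEU library had more Peg3 than every SD library, which was so in one direction or the other for 5.34% of all genes. The 3 calls among 6 compare with 18.4% of all genes called, 10.6% higher and 7.8% lower.

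Mest fell by 0.20 (SE 0.07, adjusted p = 0.0488), from 36.3 ± 1.91 to 31.7 ± 3.98 CPM, close to the threshold. The call was lost without SD replicate 1, 3 or 6 or MET+LEU replicate 1, 2, 3 or 5 (adjusted p between 0.0540 and 0.115), and without MET+LEU replicate 6 the fall was 0.25 (adjusted p = 0.0136). It was also lost with the filter of more than 5 counts, with limma-voom and with only the groups compared in the model (adjusted p = 0.0652, 0.0526 and 0.0882). Plagl1 had a log2 fold change of -0.05 (SE 0.17, adjusted p = 0.87), Ndn -0.28 (SE 0.25, adjusted p = 0.49) and Grb10 -0.01 (SE 0.39, adjusted p = 0.99). They were at -0.06, -0.24 and -0.16 without MET+LEU replicate 6. Proliferation markers moved with the combination, with a sum of 231 to 305 CPM in SD and 172 to 209 CPM in MET+LEU and 9 of 10 lower. Among the myotube markers, 4 of 12 were higher (Myh3, Myh8, Tnnt3 and Mef2c) and Mymx was lower, and without MET+LEU replicate 6 the counts were 9 of 10 and 4 and 1 of 12 again. The share of mitochondrial rRNA moved with the group as well, at 0.649 to 0.760% of reads in MET+LEU replicates 1 to 5 and 0.281 to 0.367% in SD. The TMM factors were 0.968 to 0.985 in the same 5 libraries, 0.803 in MET+LEU replicate 6 and 1.00 to 1.03 in SD. The part of these in the changes of H19, Peg3 and Mest was not tested.

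**Figure D3:**
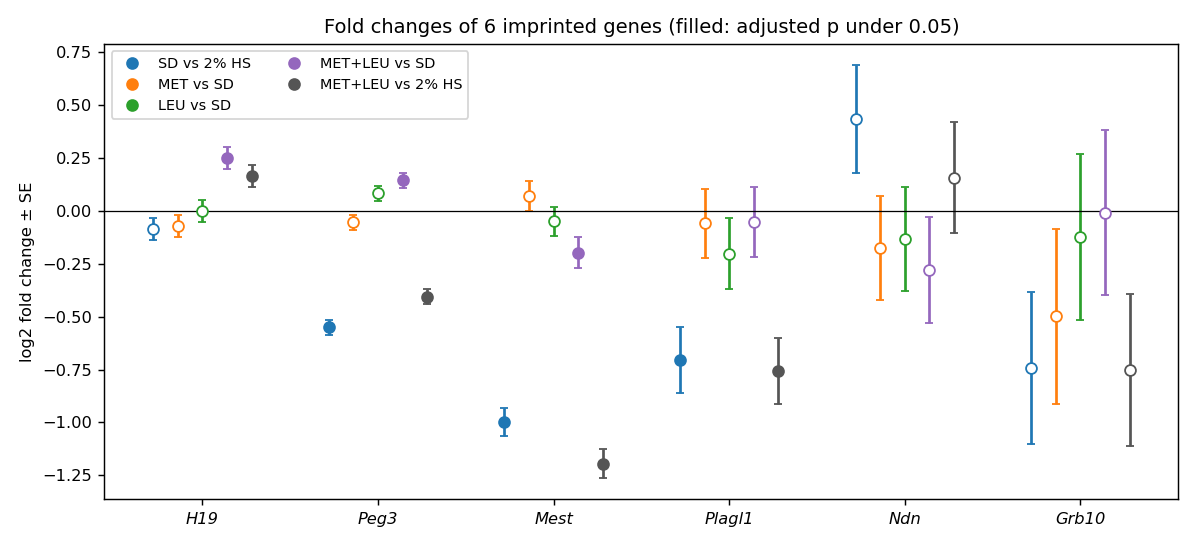
Log2 fold changes (± SE) of the 6 detected imprinted genes in 5 comparisons, with filled points at an adjusted p under 0.05. Mest, Peg3 and Plagl1 lie below 0 against 2% HS, and H19 lies at 0.25 and Peg3 at 0.15 in MET+LEU vs. SD.

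Against 2% HS, the MET+LEU group had lower Peg3, Mest and Plagl1 and higher H19. The log2 fold changes were -0.41 (SE 0.04) for Peg3, -1.20 (SE 0.07) for Mest and -0.76 (SE 0.16) for Plagl1, with adjusted p of 4.3e-13, 1.1e-17 and 9.8e-05, and the libraries of these genes did not overlap between the groups. Without MET+LEU replicate 6, Peg3 was at -0.44, Mest at -1.25 and Plagl1 at -0.77, all still called, with Grb10 at -0.90 and Ndn at 0.19. H19 was higher by 0.16 (SE 0.05, adjusted p = 0.0086), and by 0.09 with an adjusted p = 0.0514 without MET+LEU replicate 6, and the call was lost with limma-voom too (adjusted p = 0.0688). Grb10 lay at -0.75 (SE 0.36, adjusted p = 0.088), and -0.91 with an adjusted p = 0.0391 without 2% HS replicate 2. Ndn had one of 0.16 (SE 0.26, adjusted p = 0.67). Of all genes, 42.3% were called in this comparison, 22.1% higher and 20.3% lower, and 21% did not overlap. In the same comparison 9 of 10 proliferation markers were lower, and 5 of 12 myotube markers were higher and 4 lower. Of the 5 tested genes listed as fibroblast markers, 4 were higher and 1 lower. Of the 8 undifferentiated myoblast markers, 4 were lower and 1 higher, with sums of 785 to 857 CPM in 2% HS and 523 to 651 CPM in MET+LEU. Mitochondrial rRNA was 0.219 to 0.306% of reads in 2% HS and at least 0.649% in MET+LEU. The TMM factors were 1.01 to 1.02 in 2% HS and 0.803 to 0.985 in MET+LEU. The part of the markers, the rRNA share and the scaling was not tested.

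Added to metformin (MET+LEU vs. MET), leucine raised H19 by 0.32 (SE 0.05, adjusted p = 1.2e-04) and Peg3 by 0.20 (SE 0.04, adjusted p = 3.8e-04), with no overlap of the libraries for either, and Mest fell by 0.27 (SE 0.07, adjusted p = 0.0140). These 3 of 6 calls compare with 8.69% of all genes called, 5.54% higher and 3.15% lower, and with 3.77% without overlap. Without MET+LEU replicate 6 the values were 0.25 for H19, 0.16 for Peg3 and -0.32 for Mest, all still called, but with only the groups compared in the model the call of Mest was lost (adjusted p = 0.0597). Plagl1, Ndn and Grb10 had log2 fold changes of 0.01 (SE 0.17), -0.10 (SE 0.25) and 0.49 (SE 0.42), and -0.0020, -0.07 and 0.34 without that library. Beside these changes, 8 of 10 proliferation markers were lower, with a median of -0.52, and 6 of 12 myotube markers were higher and Mymx lower. Mitochondrial rRNA overlapped between the groups, and the TMM factors, 1.01 to 1.03 in MET, did not. The part of the markers was not tested.

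Added to leucine (MET+LEU vs. LEU), metformin raised H19 by 0.25 (SE 0.05, adjusted p = 0.0031), and by 0.18 (adjusted p = 0.0056) without MET+LEU replicate 6. With only the groups compared in the model this call was lost (adjusted p = 0.0522). It was the only call of 6, where 6.28% of all genes were called and 4.61% were called higher. Peg3 had a log2 fold change of 0.06 (SE 0.04, adjusted p = 0.32), Mest -0.15 (SE 0.07, adjusted p = 0.22), Plagl1 0.15 (SE 0.17), Ndn -0.15 (SE 0.25) and Grb10 0.11 (SE 0.40). These were 0.02, -0.20, 0.14, -0.12 and -0.04 without MET+LEU replicate 6, none of them called. Proliferation markers were lower in 3 of 10, and in 1 of 10 without that library, while 2 of 12 myotube markers were higher and 1 lower. Mitochondrial rRNA overlapped between the groups, and the TMM factors, 0.997 to 1.01 in LEU, did not. The part of the markers and the scaling was not tested.

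Whether the 2 agents together exceeded the sum of each alone on the log2 scale was asked with the interaction term. No imprinted gene passed the adjusted test in edgeR, and 0.0503% of all genes did. At an unadjusted p under 0.05 there were 3 genes, H19 at 0.32 (SE 0.07, adjusted p = 0.097), Peg3 at 0.12 (SE 0.05, adjusted p = 0.48) and Mest at -0.22 (SE 0.10, adjusted p = 0.52). DESeq2 called 1, H19 at 0.31 (adjusted p = 0.0043), and limma-voom called 0. In edgeR, H19 was at 0.25 with an adjusted p = 0.0462 without MET+LEU replicate 6, and Peg3 was at 0.08 and Mest at -0.27. Plagl1, Grb10 and Ndn had interaction terms of 0.21 (SE 0.24), 0.61 (SE 0.57) and 0.03 (SE 0.35), and 0.20, 0.46 and 0.06 without that library.

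Ratios of counts within a library compared neighbours of one imprinted cluster without any scaling between libraries. The 3 pairs were chosen after their values were seen, so the ratios are given as a description with no test. H19 and Igf2 (chr7:142650766-142666816) are read from opposite parental copies. H19 had 194 to 235 reads for each Igf2 read in 2% HS and 143 to 200 in SD, a mean log2 difference of -0.31 (SE 0.09), with 6 of 6 SD libraries below the 2% HS mean. Igf2 itself rose by 0.22 (SE 0.08, adjusted p = 0.0280), a call lost without 2% HS replicate 4 or 6 or SD replicate 3 or 6. In MET+LEU the ratio of H19 to Igf2 was 185 to 279, higher than in SD by 0.29 (SE 0.12), and by 0.20 without MET+LEU replicate 6. The ranges of SD and MET+LEU overlapped.

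The zinc finger gene Zim1 (chr7:6671269-6696450) lies next to Peg3 and is known as the maternally expressed gene of that pair. It fell with serum deprivation as Peg3 did, by 0.45 (SE 0.05, adjusted p = 3.8e-11), and the ratio of Peg3 to Zim1 was 5.98 to 6.94 in 2% HS and 5.53 to 6.58 in SD (log2 difference -0.10, SE 0.05). Against SD, MET+LEU had ratios of 6.14 to 6.47 (log2 difference 0.06, SE 0.04, and 0.06 without MET+LEU replicate 6). Copg2 (chr6:30747554-30896794), a coatomer subunit gene that overlaps the 3' end of Mest by 912 bp of exon on the opposite strand, fell by 0.26 (SE 0.05, adjusted p = 3.9e-05), less than Mest. The ratio of Mest to Copg2 was 1.21 to 1.47 in 2% HS and 0.712 to 0.863 in SD, with no overlap (log2 difference -0.74, SE 0.06). In MET+LEU it was 0.524 to 0.962 (log2 difference from SD -0.14, SE 0.13), and without MET+LEU replicate 6, the highest library, the difference was -0.23. The strand setting of the counting is not given in the sources used here, so reads from the overlap may be split between the 2 genes in a way that is not known.

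**Figure D4:**
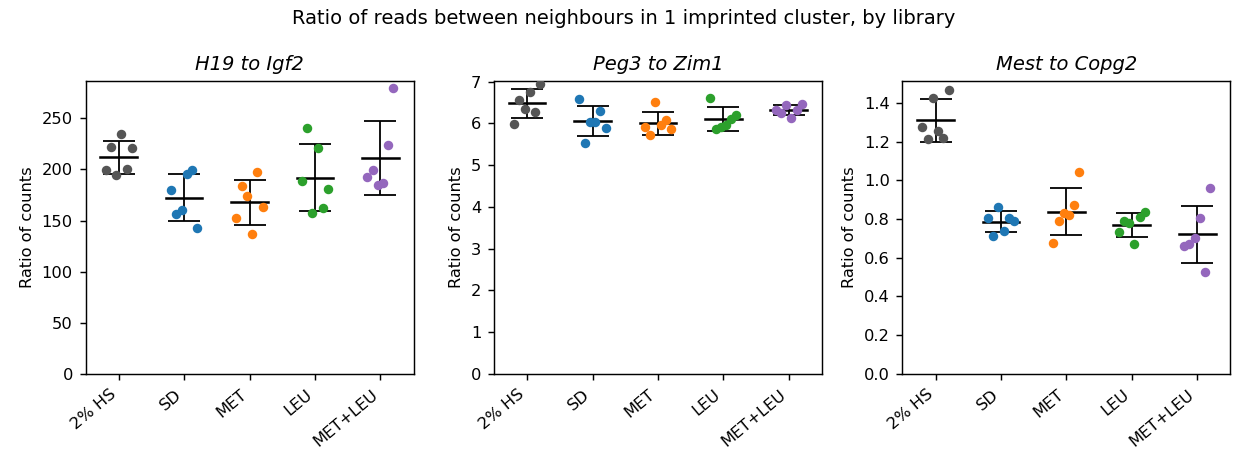
Ratio of counts within each library for H19 to Igf2, Peg3 to Zim1 and Mest to Copg2, by group; points are libraries, lines group means and bars ± 1 standard deviation (n = 6). The ratio of Mest to Copg2 is above 1.2 in all 2% HS libraries and at most 0.863 in the SD libraries.

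The neighbours of the 10 genes and other genes listed as imprinted in mouse or human moved in both directions. Of 82 listed, 52 were tested, and serum deprivation raised 8 and lowered 11 of them, 19 of 52 against 27.8% of all genes. As a description, their median log2 fold change was 0.01, against 0.00 over all genes and -0.63 over the 6 tested members. In the H19 cluster, Cd81 and Tssc4 rose by 0.23 and 0.34 along with Igf2, while Tspan32 fell by 0.95 and Cdkn1c, the cell cycle inhibitor gene at the far end, lay at -0.18 (adjusted p = 0.078). Usp29, beside Peg3, had one of -0.37 (adjusted p = 0.14). Ddc, beside Grb10, fell by 0.47.

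Elsewhere in the genome, the higher genes with serum deprivation were Dcn (0.65), which encodes the matrix proteoglycan decorin, Sfmbt2 (0.67), Peg13 (0.33) and the retrotransposon-derived Peg10 (0.32) with its neighbour Sgce (0.22), the epsilon-sarcoglycan gene. The lower ones were Igf2r (-0.24), the receptor that clears IGF2, and Airn (-0.31), the antisense RNA that silences the paternal Igf2r, together with Nespas (-0.62), Gatm (-0.46), Rb1 (-0.38), Cdh15 (-0.36), the M-cadherin gene, and Dhcr7 (-0.22). All had an adjusted p under 0.05. Calls were lost for Airn without 2% HS replicate 4 or 6 or SD replicate 1 or 3, for Sgce without 2% HS replicate 2 or SD replicate 4 or 5, and for Sfmbt2 without 2% HS replicate 2 or 5 or SD replicate 1 or 4. Over all 20 alternatives, left-out libraries among them, Airn lost its call in 5. Airn and Igf2r overlap on opposite strands, as do Nespas with Gnas and Zrsr1 with Commd1, and without the strand setting reads cannot be assigned to one of a pair with certainty. Magel2 and Snurf, from the region of Ndn, were at 0 in every library. Snrpn, whose transcript also carries Snurf, was tested and lay at 0.21 (SE 0.10, adjusted p = 0.12). How reads shared by these rows were counted is not known, so the 0 of Snurf does not show that the transcript was absent.

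In MET+LEU vs. SD, 5 of the 52 were higher and 7 lower, beside 10.6% higher and 7.8% lower over all genes, with a median of -0.04 against -0.01 over all genes. The higher ones were Dcn (0.48), Zrsr1 (0.44), Commd1 (0.21), Rb1 (0.15) and Gnas (0.14), the gene of the stimulatory G protein alpha subunit. The lower ones were Fignl1 (-0.39), Airn (-0.35), Nespas (-0.33), Cdh15 (-0.23), Blcap (-0.16), Cd81 (-0.15) and H13 (-0.09). Igf2, Igf2r, Cdkn1c and Usp29 had log2 fold changes of -0.04, -0.04, 0.11 and -0.14, none of which passed. Without SD replicate 1 the count was 7 of 52, the calls of Commd1, H13, Rb1, Blcap and Nespas being lost, and without MET+LEU replicate 6 it was 10, with H13 and Blcap lost and Zrsr1 at 0.31, Airn at -0.46 and Nespas at -0.42. Single other libraries, when left out, ended the calls of Commd1 (SD replicate 2, 5 or 6, MET+LEU replicate 1, 2 or 4), Nespas (SD replicate 3, MET+LEU replicate 2, 3 or 5), Airn (MET+LEU replicate 2 or 3) and H13 (SD replicate 2). Over all 19 alternatives, left-out libraries among them, Commd1 lost its call in 8 and Nespas and H13 each in 6. Blcap lost it in 4, Airn and Rb1 each in 3, and the other called genes kept theirs.

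**Figure D5:**
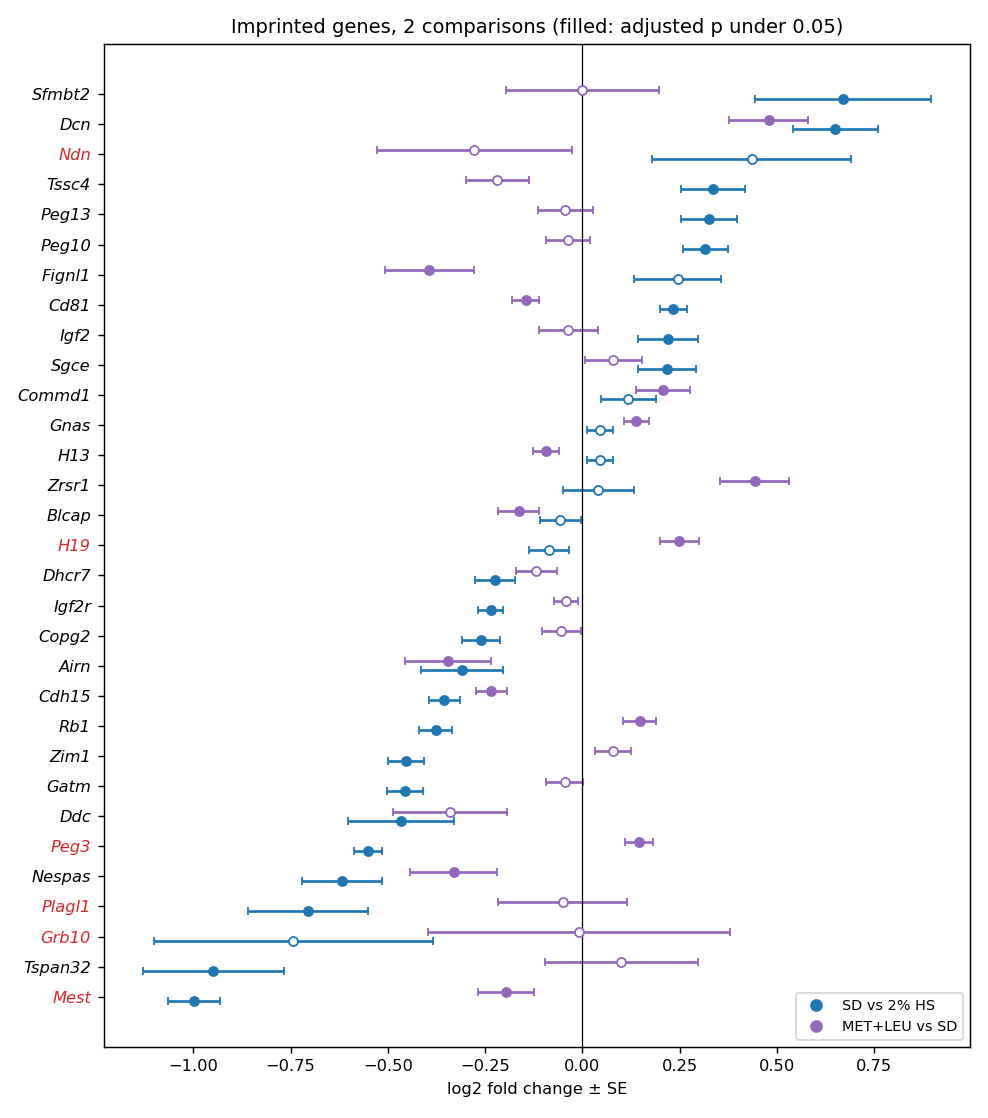
Log2 fold changes (± SE) for serum deprivation (SD vs. 2% HS) and the combination (MET+LEU vs. SD) of the 6 detected members (red names) and the 25 neighbours and other genes listed as imprinted in mouse or human that were called in either comparison, with filled points at an adjusted p under 0.05. Mest is the lowest and Sfmbt2 (0.67) the highest for serum deprivation, and the 2 comparisons share the SD libraries.

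Genes that set, keep or remove imprints or DNA methylation are called imprint regulators here. They and the partners or relatives of the 10 genes were read in the same way. With serum deprivation 27.8% of all genes were called, and with the combination 18.4%. Of 12 tested imprint regulators, serum deprivation raised Uhrf1 (0.44), which recruits the maintenance methyltransferase. It lowered Tet1 (-0.43), a methylcytosine dioxygenase gene, and Dnmt3a (-0.26), a de novo methyltransferase gene. The maintenance methyltransferase gene Dnmt1 was not called (0.10, adjusted p = 0.16), and neither were Zfp57 and Zfp445. With the combination Dnmt1 lay at -0.05 (adjusted p = 0.54), and again none of these was called. The combination lowered Uhrf1 (-0.57), Trim28 (-0.23), a corepressor gene, and Tet3 (-0.15) against SD and raised Ctcf (0.16), the insulator protein gene. Without MET+LEU replicate 6 they were at -0.56, -0.19, -0.14 and 0.12, and the call of Ctcf was lost (adjusted p = 0.0790), as it was without SD replicate 1 or MET+LEU replicate 2. Uhrf1 is also known to rise in dividing cells, and the proliferation markers above fell in the same comparison, whose part in this was not tested. Of 21 tested partners and relatives, 3 rose and 7 fell with serum deprivation. The largest changes were in Notch3 (-0.98), Maged2 (-0.69), a MAGE relative of Ndn, Grb14 (0.65), a relative of Grb10, Igf2bp2 (-0.39), which encodes a protein that binds Igf2 RNA, and Igf1 (0.33). With the combination 1 rose and 4 fell, Notch1 (-0.29), Igf1 (0.26), Notch3 (-0.26), Trp53 (-0.18) and Notch2 (-0.10). Without MET+LEU replicate 6 they were at -0.27, 0.24, -0.19, -0.15 and -0.09, and the call of Notch2 was lost (adjusted p = 0.0771), as it was without SD replicate 1 or 2. With only the groups compared in the model, those of Ctcf, Notch2, Notch3 and Trp53 were lost (adjusted p between 0.0555 and 0.187).

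The genes most like the called members over the 30 libraries were found by Pearson's r of log2 CPM among all tested genes, as a description. They were Tpm2 (r = 0.92), a tropomyosin gene, and Emc2 (0.88) for H19, Prune2 (0.97) and Usp53 (0.96) for Peg3, Capn6 (0.95) and Olfml2b (0.95) for Mest, and Tcof1 (0.80) and Itga6 (0.80) for Plagl1. After each group's mean was subtracted, r was 0.88 and 0.83 for the genes like H19 and 0.76 and 0.68 for those like Peg3, but 0.41 and 0.50 for those like Mest and 0.55 and 0.32 for those like Plagl1. Between the members, Peg3 and Mest had r = 0.80 over the 30 libraries and -0.08 within groups, and H19 and Peg3 had 0.40 and 0.54. The libraries share the 5 conditions, their scaling and, in MET+LEU replicate 6, one library that stands apart.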

How the data were processed

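Stranded total RNA libraries depleted of ribosomal RNA were sequenced with 150 × 150 bp reads. Per the labels' processing notes, cutadapt 1.16, STAR 2.7.6a, featureCounts 1.6.3, DESeq2 1.30.1 and GRCm38 were used by the submitters. The annotation release and the strand and overlap settings are not given in the sources used here. The authors deposited raw counts per Ensembl gene, with no normalization. Of 55487 identifiers, 55227 were given symbols from the reference tables, and coordinates and exon lengths came from GENCODE M21, which is on the same build. The 260 others held 0.00434% of the counts.

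Counts were analysed in R 4.3.3 with edgeR 4.0.16. Genes were kept by filterByExpr (minimum count 10, minimum total 15), which left 15907. Libraries were scaled by TMM, 1 mean per group was fitted to all 30 libraries, and each contrast was given a quasi-likelihood F test. P-values were adjusted by Benjamini and Hochberg's method across the 15907 genes, and 0.05 was the threshold. The SE is the log2 fold change divided by the root of F, and 95% intervals are 1.96 SE on either side. CPM are counts scaled to the TMM-adjusted library of tested genes. Ratios of neighbours were given with no test, and their SE is that of a difference of mean log2 ratios. The steps were tested on simulated data. Total counts per library, 12784960 to 19604103, set the precision of low genes.

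Alternatives were DESeq2 size factors, upper-quartile scaling, a filter of more than 5 counts in total, DESeq2 1.42.0, limma 3.58.1 (voom with sample quality weights), only the groups compared, a replicate block and leaving out each library. The model without MET+LEU replicate 6 in comparisons of other groups was added after seeing the data. So were the alternatives for the other imprinted genes, imprint regulators and partners, and those for marker counts and ratios. The 10 genes and all lists were chosen with earlier results of these data known. Named were the 10 genes in every comparison and other imprinted genes called in SD vs. 2% HS or MET+LEU vs. SD. Igf2, Cdkn1c, Rtl1, Usp29 and Igf2r were named whatever their result. Also named were at most 5 called partners and 5 called imprint regulators per comparison, and the 2 genes most correlated with each called member. Marker genes named beside counts, and Snrpn, Dnmt1, Zfp57 and Zfp445, were chosen after their values were seen.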

Additional observations from a re-analysis of the deposited data

Results flagged for a closer look

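In each group of 6 libraries, for the 47 genes named by the rule and the 3 ratios (250 groups), the highest or lowest library was compared with the range of the group by Dixon's gap (critical value 0.625). Chance alone flags about 1 in 20 groups, and 9 of 250 were flagged, none of them for the 6 tested imprinted genes of the 10 or the ratios. MET+LEU replicate 6 gave 4. It had Nespas at 7.29 CPM (the other libraries at 4.76 to 5.48), Zrsr1 at 29.9 CPM (17.4 to 20.4), Trim28 at 95.1 CPM (113.9 to 120.8) and Notch2 at 377 CPM (400.3 to 414). Tet1 was lowest in 2% HS replicate 3 at 31.5 CPM (37.0 to 39.4) and in MET replicate 3 at 21.9 CPM (25.5 to 27.1). Fignl1 was lowest in 2% HS replicate 4 at 4.00 CPM (5.51 to 5.95). In MET replicate 6, Blcap was lowest at 27.9 CPM (32.4 to 34.4) and Notch1 highest at 225 CPM (203 to 211). Among the 6 tested imprinted genes no interaction of metformin and leucine passed in edgeR's test of all 30 libraries, while that of H19 passed in DESeq2 (adjusted p = 0.0043) and in edgeR without MET+LEU replicate 6 (adjusted p = 0.0462).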

How the results depend on the processing

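For the 6 tested members in 8 contrasts, 909 fold changes under alternatives kept their direction and their side of the threshold, 14 lost the call, 6 gained it and 51 changed sign, all 51 for values that were not called. With the replicate block the number of members called was 3 in each of SD vs. 2% HS and MET+LEU vs. SD, and the block changed no call of a member. It called 21 other imprinted genes in place of 19 in SD vs. 2% HS and again 12 in MET+LEU vs. SD. The block turned Grb10 in MET+LEU vs. SD to 0.0218 and the interaction of Ndn to -0.0156. Same-numbered libraries had a mean correlation of deviations of 0.0157 (2 of 60 pairs over 0.1, the highest 0.142). No strong pairing by number was seen, but weak pairing could be missed, and the labels do not state any. With only the groups compared in the model, MET+LEU vs. LEU had 0 members called in place of 1 (H19, adjusted p = 0.0522), Mest lost its call in MET+LEU vs. MET (adjusted p = 0.0597) and the other imprinted genes called in MET+LEU vs. SD numbered 6 in place of 12. The interaction had 1 member called with DESeq2. Leaving out 1 library gave 0 to 1 members called for the interaction, 7 to 15 other imprinted genes in MET+LEU vs. SD and 2 to 3 members there. Mest in MET+LEU vs. SD lost its call with the filter of more than 5 counts (adjusted p = 0.0652), limma-voom (0.0526) and only the groups compared (0.0882), and H19 in MET+LEU vs. 2% HS with limma-voom (0.0688). Grb10 in MET+LEU vs. 2% HS gained one with limma-voom (0.0335). The cause of these changes was not tested.

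Signs turned as follows, with the cause not tested. H19 in LEU vs. SD, at about 0, was 0.00434 with DESeq2 size factors and with DESeq2, 0.00406 with upper-quartile scaling, 0.00399 with the filter of more than 5 counts, 0.00301 with only the groups compared and 0.00318 without MET+LEU replicate 6. Limma-voom gave 0.0188 for Grb10 in LEU vs. SD, 0.0498 for Plagl1 in MET+LEU vs. SD and -0.0552 for Grb10 in MET+LEU vs. LEU. Plagl1 in MET+LEU vs. MET was -0.00724 with upper-quartile scaling and -0.00129 with the filter of more than 5 counts. Leaving out 1 library gave -0.12 to 0.0660 for Plagl1 and -0.30 to 0.000674 for Ndn in MET vs. SD. In LEU vs. SD it gave -0.0241 to 0.0395 for H19, -0.30 to 0.26 for Grb10 and -0.26 to 0.0459 for Ndn. In MET+LEU vs. SD the ranges were -0.12 to 0.0639 for Plagl1 and -0.16 to 0.37 for Grb10. They were -0.0159 to 0.35 for Ndn in MET+LEU vs. 2% HS, -0.0373 to 0.0802 for Plagl1 in MET+LEU vs. MET, -0.0389 to 0.29 for Grb10 in MET+LEU vs. LEU and -0.16 to 0.15 for the interaction of Ndn. Depth limited the low genes, with 2 to 18 counts per library for Grb10 and 9 to 39 for Ndn.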
